A study of Mus musculus with 4 samples.

Results

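The miR-297, miR-466, miR-467 and miR-669 subfamilies of mouse miRNAs were examined in exosomes released by BV2, a mouse microglial line immortalized in culture. Members were chosen by name alone, as every listed mouse miRNA named miR-297, miR-466, miR-467 or miR-669 with a letter or a hyphen after the number. This gave 40 names among the 603 listed miRNAs (6.63%). Of these, 18 names in 8 groups carried identical reads in every library, so the 40 names stand for 30 distinct read sets. The groups with identical reads hold members alone, and 0 members shared their reads with a miRNA outside the family.

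Exosomal small RNA was sequenced in 4 libraries, 2 per group. The control group came from wild-type BV2 cells kept at 37 °C for 2 h (control 1 and control 2). The HS group, for heat stress, came from the same line held at 42 °C for 2 h and then returned to 37 °C for 12 h (HS 1 and HS 2), by the labels and the study's methods. Another passage of the study gives a shorter time from heating to harvest, so the interval is not settled. For the control group no time after the 2 h is given, so time in culture may also differ between the groups. All 4 libraries came from vesicles pelleted by ultracentrifugation from the medium of this single cultured line rather than from brain tissue. The labels do not say whether replicates were separate cultures, so p-values measure only the spread between these libraries.

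A miRNA is cut from a hairpin precursor, and either side of the hairpin can yield a mature strand, named -5p or -3p. Bases 2 to 8 of the mature strand, the seed, pair with target messages, so the arms of a hairpin address different targets. In the mouse, most miRNA genes of these 4 subfamilies stand in tandem repeats in an intron of Sfmbt2, a Polycomb group gene that is expressed from the paternal copy in extraembryonic tissue. The cluster is known from placenta and embryonic stem cells. Its mature strands are close to each other in sequence and rich in alternating U and G or C and A, so reads are hard to assign to a single copy.

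In the GENCODE M21 annotation of GRCm38, Sfmbt2 lies on the plus strand of chromosome 2 from 10370510 to 10595253. Of the 81 annotated miRNA genes of the 4 subfamilies, 71 lie inside it, all on its strand, and 0 overlap an exon, so all 71 are intronic. They fill 51.6 kb from 10466663 to 10518279. By subfamily there are 5 miR-297 genes, 23 miR-466 genes, 14 miR-467 genes and 29 miR-669 genes in the intronic block. Mir669a has 12 copies there, Mir467a 10 and Mir466b 8, and reads from copies of a name cannot be told apart here. Of the 40 listed names, 34 have genes only inside Sfmbt2. MiR-466f-3p has copies inside and outside. MiR-466i-5p and miR-466i-3p come from a gene on chromosome 13, and miR-466k and miR-669n have genes on chromosome 3. MiR-466a-3p has no gene of that name in the annotation. A gene named Mir466, with no letter, lies inside Sfmbt2 and was not paired with a listed name.

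**Figure D1:**
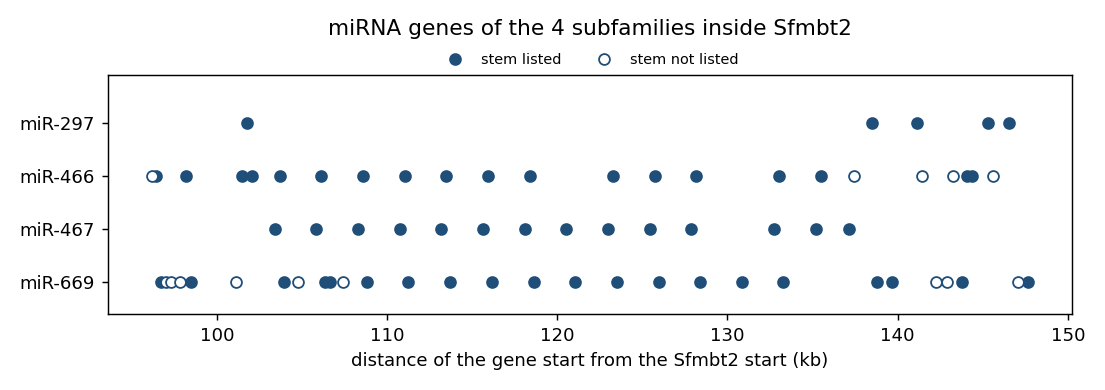
Positions of the intronic miRNA genes of the 4 subfamilies (rows), as the distance of each gene start from the start of Sfmbt2 in kb. Filled points are genes whose stem is among the listed miRNAs and open points are the others. The 71 genes run from 96.2 to 148 kb, with miR-466, miR-467 and miR-669 genes alternating.

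Mature sequences were taken from RefSeq (GRCm38.p6), which matched 497 of the 603 listed names and 3 of the 40 members. These 3 are shown because they let the repeats be read directly. Their genes all lie outside Sfmbt2, so no strand of the intronic block is shown. Capitals mark the seed, bases 2 to 8, and all 3 lie on the plus strand.
miR-466i-3p: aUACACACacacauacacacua
miR-466k: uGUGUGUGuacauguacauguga
miR-669n: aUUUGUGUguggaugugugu
They lie at chr13:17747552-17747573, chr3:85467396-85467418 and chr3:115979905-115979924, and are 22, 23 and 20 bases long. Each has a different seed. All 3 hold at least 1 of 4 repeat motifs, which were ACACACA and the overlapping CACACAC, with their reverse complements UGUGUGU and the overlapping GUGUGUG. Of the 497 listed miRNAs with a sequence, 8 (1.61%) held such a motif. The 5 that were not members, miR-206-3p, miR-3082-5p, miR-32-3p, miR-574-3p and miR-574-5p, had at most 17 reads in any library, and 0 of them shared a seed with the 3 members shown.

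Each value was a read count over the size factor of its library, here called a normalized count, and whole reads were recovered from it. The libraries held 96516 (control 1), 121503 (control 2), 42091 (HS 1) and 113966 (HS 2) reads on listed miRNAs. HS 1 stood apart, with 228 miRNAs detected against 420 to 444 in the other libraries. A count of 0 allowed up to 3 reads, which is 0.00311% of reads in control 1, 0.00247% in control 2, 0.00713% in HS 1 and 0.00263% in HS 2. PCR copies of a molecule are not separate molecules, so these limits and the intervals below reflect counting error alone. Of the myeloid markers, 6 of 6 were listed, with 2.96% to 6.76% of reads in the control group and 1.68% to 3.80% in the HS group. Among them, miR-223-3p had 5, 2, 3 and 0 reads and miR-142a-3p had 17, 3, 0 and 3. MiR-142a-5p, miR-146a-5p, miR-155-5p and miR-21a-5p had 26 or more reads in every library. The neuronal miR-124-3p was not listed. Neuronal markers (2 of 3 listed) took 2.73% to 3.68% in the control group and 2.80% to 3.69% in the HS group. Most of these reads were miR-128-3p, and miR-9-5p took 0.0214% to 0.156% over the libraries. Stromal markers (4 of 4) took 1.20% to 3.06% and 0.0143% to 0.878%, with miR-199a-3p and miR-145a-5p at 0 in HS 1. Epithelial markers (5 of 5) took 0.225% to 0.455% and 0.00238% to 0.154%, with 4 of them at 0 in HS 1, and red cell and liver markers (3 of 3) 0.0767% to 0.204% and 0.226% to 0.283%. The part of these shifts in the results below was not tested.

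The family held between 1.13% and 2.90% of the reads. Counting each distinct read set once, control 1 had 1090 member reads (1.13%), control 2 had 2212 (1.82%), HS 1 had 1221 (2.90%) and HS 2 had 1892 (1.66%). HS 1 was the highest and control 1 the lowest, and HS 2 lay between the control libraries. The normalized sum was 1205 ± 416 for control and 2104 ± 1200 for HS exosomes (SD, n = 2 each), a log2 ratio of 0.80 with overlapping groups. Without HS 1 the log2 ratio was 0.059. In bulk vesicle RNA, fewer vesicles that carry a miRNA and fewer copies per vesicle cannot be told apart.

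Most of these reads came from a single strand. MiR-669c-5p, cut from the 5p side of a hairpin whose gene lies in the downstream part of the intronic block, had 732 reads in control 1, 1531 in control 2, 1101 in HS 1 and 1102 in HS 2. It took 67.2%, 69.2%, 90.2% and 58.2% of the member reads, and ranked 32nd, 22nd, 12th and 30th among the listed miRNAs. HS 1 and HS 2 therefore had nearly the same raw reads at very different depths. Normalized, the level was 612 in control 1, 1038 in control 2, 2662 in HS 1 and 731 in HS 2. HS 1 stood 3.64-fold above HS 2, and HS 2 lay between the control libraries. In limma the log2 fold change was 0.81 with a standard error of 0.99 and an adjusted p of 0.739, and without HS 1 it turned to -0.12. MiR-669c-5p was described in this detail after its share had been seen. Without it, the family held 358, 681, 120 and 790 reads, or 0.371%, 0.560%, 0.285% and 0.693%, so HS 1 was then the lowest library and HS 2 the highest.

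Detection was uneven among the members. The libraries held 30, 27, 12 and 22 of the 40 names, in the order control 1, control 2, HS 1 and HS 2. Of the 30 read sets, 5 had reads in all 4 libraries, 10 had reads in a single library, 10 were at 0 in both HS libraries and 4 were at 0 in both control libraries. HS 1 was the sole library without reads for 6 sets. A minimum of 10 reads summed over the libraries was met by 31 names in 21 sets, and the other 9 names had sums from 1 to 9 reads. Of the names tested, 20 of 31 members (64.5%) were at 0 in HS 1, against 167 of all 376 (44.4%). A whole group was at 0 for 5 of the 21 member sets. Among all names tested it was 45 of 376, which counts names with identical reads separately, so the 2 counts are not comparable. Of the 10 sets at 0 in both HS libraries, miR-297b-5p, miR-466k, miR-466p-5p, miR-467d-5p, miR-467e-5p and miR-669g had sums of 7 reads or fewer. Of the 4 at 0 in both control libraries, miR-466c-5p, miR-467e-3p and miR-669p-3p had 9 or fewer. The plot of member levels by library shows where each of the 21 sets was read.

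**Figure D2:**
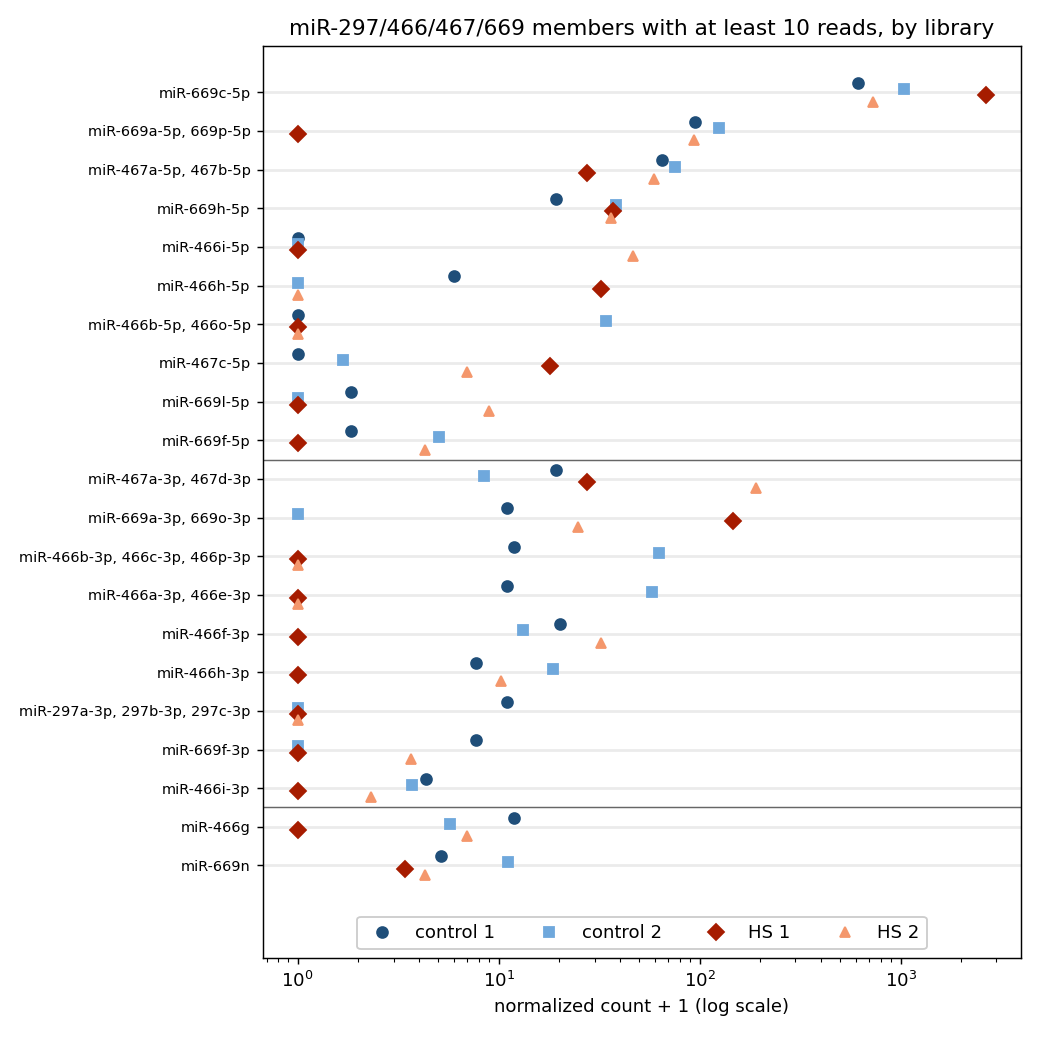
Normalized count plus 1 (log scale) of the 21 distinct read sets with at least 10 reads, in the 2 control and 2 HS libraries, with -5p sets at the top, -3p sets in the middle and names without an arm at the bottom. Points at 1 are sets with 0 reads, and HS 1 is at 0 for 13 of the 21 sets.

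Each miRNA was compared between the groups with limma on log2(normalized count + 1), over the 376 names that met the read minimum. The pseudocount shrinks the fold change of a miRNA with few reads. After Benjamini-Hochberg adjustment, 0 of the 376 names had an adjusted p under 0.05 in limma (the smallest was 0.516), and 31 had an unadjusted p under 0.05, 6 of them members. EdgeR and DESeq2 on the recovered reads also gave 0. The study's criterion, over 2-fold change at an unadjusted p under 0.05, was met by 5 of the 31 member names tested (16.1%) for lower levels in the HS group, against 6.65% of all names tested. The 5 were miR-466a-3p, miR-466b-3p, miR-466c-3p, miR-466e-3p and miR-466p-3p, which stand for 2 of the 21 read sets tested. The share by name therefore counts the same reads more than once. Both sets had no reads in HS 1 or HS 2, so they met the read minimum through control reads alone and had no HS spread. For higher levels in the HS group it was met by 1 of 31 (3.23%), miR-467c-5p, against 1.6% of all names. No exact permutation test of 2 against 2 libraries can give a p under 0.05.

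The direction of the members was mixed. Of the 21 sets, 8 had a log2 fold change above 0 and 13 below, with a median of -0.80 (-0.55 with the 5 sets that were at 0 in a whole group placed at their bound). Over all 376 names the median was -0.65 (-0.47 with bounds), and 34.6% were above 0. On the -5p arm, 6 of 10 sets were above 0 and the median was 0.62. On the -3p arm, 2 of 9 were above 0 and the median was -1.53 (-1.40 with bounds). Both sets without an arm in the name, miR-466g and miR-669n, were below 0. Under upper quartile scaling the median of all names moved to -0.47, and without HS 1 it was -0.17, so a log2 fold change near these values is close to that of all names.

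**Figure D3:**
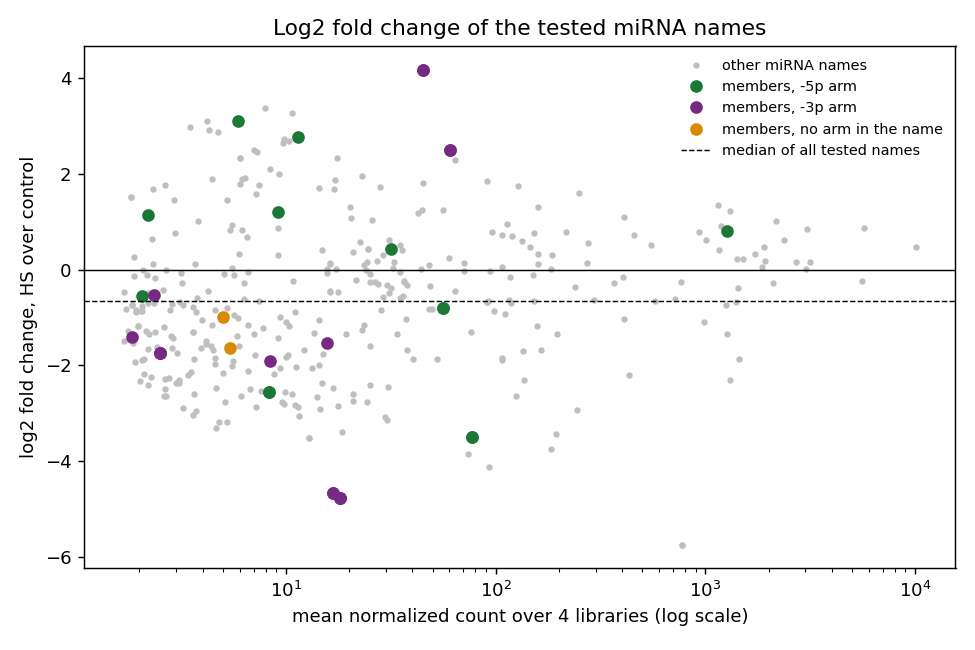
Log2 fold change, HS over control (y axis), against the mean normalized count over the 4 libraries (x axis, log scale) for the 376 names tested, with members coloured by arm and names with identical reads drawn on the same point. The dashed line is the median of all names at -0.65, and member -3p sets hold the highest member value (4.18) and the lowest (-4.77).

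The miR-466 subfamily divided by arm. Its -3p reads were 60 in control 1, 223 in control 2, 0 in HS 1 and 63 in HS 2, which is 0.0622%, 0.184%, 0% and 0.0553% of listed reads. Both HS libraries lay below both control libraries, but the Wilson 95% intervals of control 1 (0.0483% to 0.0800%) and HS 2 (0.0432% to 0.0707%) overlapped. The normalized sum was 101 ± 71.4 for control and 20.9 ± 29.6 for HS exosomes (SD, n = 2 each), 4.82-fold lower, a log2 ratio of -2.27. The -5p reads were 6, 56, 13 and 78 in the same order, or 0.00622%, 0.0461%, 0.0309% and 0.0684%. Their groups overlapped, with normalized sums of 21.5 ± 23.3 and 41.6 ± 14.4 (SD, n = 2 each) and a log2 ratio of 0.95.

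Within miR-466-3p, 2 nearly parallel read sets carried the difference. MiR-466b-3p, miR-466c-3p and miR-466p-3p, whose reads were identical, had 13 reads in control 1, 91 in control 2 and none in HS 1 or HS 2. MiR-466a-3p and miR-466e-3p, also identical to each other, had 12, 84, 0 and 0. In normalized counts control 2 was 5.68-fold above control 1 in both sets, and whether they share reads was not tested. With HS placed at 3 reads per library, the first set was at least 7.85-fold lower after heat stress and the second at least 7.24-fold. Without control 2 these bounds fell to 2.35-fold and 2.17-fold. Their log2 fold changes were -4.77 and -4.66 (standard errors of 1.08 each, limma adjusted p of 0.516 each), and neither met the criterion when HS 1 or HS 2 was left out. The log2 fold changes were then the same, and the spread came from the control libraries alone, the lone HS library being taken to vary like them. At the mean control level, HS 1 would hold 15.0 reads of the first set and 13.9 of the second at its size factor.

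The other 3 miR-466-3p sets kept reads in HS 2. MiR-466f-3p, with gene copies inside and outside the block, had 23, 18, 0 and 47 reads, and HS 2 was its highest library. MiR-466h-3p had 8, 26, 0 and 14 reads, and miR-466i-3p had 4, 4, 0 and 2. Both HS libraries were lower for miR-466i-3p, but its 0 in HS 1 allowed up to 7.25 normalized counts. That limit is above its 3.34 in control 1 and 2.71 in control 2, so its groups were not separated at this depth. Together these 3 sets had 35, 48, 0 and 63 reads, or 29.3, 32.5, 0 and 41.8 normalized counts, so the sum in HS 2 lay above both control libraries and HS 1 was at 0. Their log2 fold changes were -1.53, -1.90 and -1.40. At the level of HS 2, HS 1 would hold 12.9 reads of miR-466f-3p at its size factor.

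On the -5p arm of miR-466, each set was read in at most 2 libraries. MiR-466i-5p, from the chromosome 13 gene, had 69 reads in HS 2 and 0 in the other libraries. In limma its log2 fold change was 2.77 with a standard error of 2.02 and an adjusted p of 0.621, and at the level of HS 2, HS 1 would hold 18.9 reads at its size factor. MiR-466b-5p and miR-466o-5p, with identical reads, had 49 reads in control 2 and 0 elsewhere. MiR-466h-5p, which has been described as promoting apoptosis in cultured ovary cells, had 6 reads in control 1 and 13 in HS 1 and none in control 2 or HS 2. The 2 remaining sets, miR-466c-5p and miR-466p-5p, had 9 and 7 reads, each in 1 library. MiR-466g, which has no arm in its name, had 13, 7, 0 and 9 reads.

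The miR-467 subfamily moved the other way by arm. Its -3p reads were 22 in control 1, 11 in control 2, 11 in HS 1 and 288 in HS 2, or 0.0228%, 0.00905%, 0.0261% and 0.253%. HS 2 was far above the other libraries, while HS 1 exceeded control 1 by less than the counting error (95% intervals 0.0146% to 0.0468% and 0.0151% to 0.0345%). The normalized sum was 12.9 ± 7.73 for control and 109 ± 116 for HS exosomes (SD, n = 2 each), 8.42-fold higher, and the spread between the HS libraries was as large as their mean. The log2 ratio was 3.07, and without HS 2 it was 1.04. The -5p reads were 79, 119, 18 and 97, or 0.0819%, 0.0979%, 0.0428% and 0.0851%. As normalized counts they were 66.0 and 80.7 in control against 43.5 and 64.4 in HS exosomes, without overlap, but as shares of listed reads HS 2 lay between the control libraries.

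Most miR-467 reads belonged to miR-467a and to names with the same reads. MiR-467a-3p and miR-467d-3p, with identical reads, had 22, 11, 11 and 286 reads, and HS 2 stood 7.13-fold above HS 1 in normalized counts. At the level of HS 2, HS 1 would hold 78.5 reads at its size factor, and it held 11. MiR-467a-5p and miR-467b-5p, also identical, had 77, 110, 11 and 88 reads, with HS 2 2.20-fold above HS 1. MiR-467c-5p, from the first Mir467 gene of the block, had 0, 1, 7 and 9 reads, and was the member that met the criterion for higher levels. Its HS reads exceeded its control read by 22.3 times after division by size factors, with an exact 95% counting interval of 3.46 to 933. The control group had a single read, and the set passed the minimum of 10 reads through its 16 HS reads. In limma the log2 fold change was 3.11 with a standard error of 0.89 and an adjusted p of 0.516. It no longer met the criterion without control 1, control 2 or HS 1 (log2 fold changes of 2.74, 3.48 and 2.43), nor in edgeR or DESeq2. The 3 remaining sets, miR-467d-5p, miR-467e-5p and miR-467e-3p, had sums of 6, 4 and 2 reads. MiR-467 miRNAs are known for repressing thrombospondin-1, an inhibitor of vessel growth.

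In the miR-669 subfamily the -3p arm was higher in the HS group and the -5p arm did not separate the groups. The -3p reads were 20 in control 1, 0 in control 2, 62 in HS 1 and 40 in HS 2, or 0.0207%, 0%, 0.147% and 0.0351%. Both HS libraries lay above both control libraries, with HS 1 the highest, but the 95% intervals of control 1 (0.0134% to 0.0320%) and HS 2 (0.0258% to 0.0478%) overlapped. The normalized sum was 8.36 ± 11.8 for control and 88.2 ± 87.2 for HS exosomes (SD, n = 2 each), 10.6-fold higher, a log2 ratio of 3.40. The -5p reads were 868, 1774, 1116 and 1312, or 0.899%, 1.46%, 2.65% and 1.15%. The normalized -5p sum was 964 ± 337 for control and 1785 ± 1293 for HS exosomes (SD, n = 2 each), a log2 ratio of 0.89 with overlapping groups, which turned to -0.66 without miR-669c-5p.

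MiR-669a, which is known for repressing the muscle regulator MyoD, had reads under both arm names. Each arm shares its reads with another name, so the reads need not come from a miR-669a hairpin. MiR-669a-3p, with reads identical to miR-669o-3p, had 12, 0, 60 and 36 reads. Normalized, it stood at 145 in HS 1 and 23.9 in HS 2, a gap of 6.07-fold between replicates, and both were above the control libraries. The limma log2 fold change of 4.18, with a standard error of 1.63 and an adjusted p of 0.585, was the highest of the members. MiR-669a-5p, with reads identical to miR-669p-5p, had 112, 182, 0 and 140 reads, or 93.6, 123, 0 and 92.9 normalized counts. HS 2 was within 1 normalized count of control 1, and HS 1 held 0 reads where its size factor and the control mean would give 44.9. The limma log2 fold change was -3.48 with a standard error of 2.35 and an adjusted p of 0.621, and it was -0.21 without HS 1.

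Of the remaining miR-669 sets, miR-669h-5p was the most even across libraries. MiR-669h-5p, from the last gene of the block, had 22, 55, 15 and 53 reads, and its normalized levels of 36.3 in HS 1 and 35.2 in HS 2 were close to the 37.3 of control 2, above the 18.4 of control 1. MiR-669n had 5, 15, 1 and 5 reads, and both HS libraries lay below both control libraries. MiR-669l-5p had 1, 0, 0 and 12 reads, miR-669f-5p 1, 6, 0 and 5, and miR-669f-3p 8, 0, 0 and 4. MiR-669g and miR-669p-3p had sums of 5 and 2 reads. The groups of these 5 sets overlapped or rested on fewer than 10 reads.

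MiR-297 was the least abundant subfamily. MiR-297a-3p, miR-297b-3p and miR-297c-3p, with identical reads, had 12 reads in control 1 and 0 in the other libraries. MiR-297b-5p, the whole -5p arm of the subfamily, had 6 reads in control 2 and 0 elsewhere. The HS libraries held no miR-297 reads, but with 1 of 2 control libraries also at 0 for each arm a difference was not detectable at this depth.

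**Figure D4:**
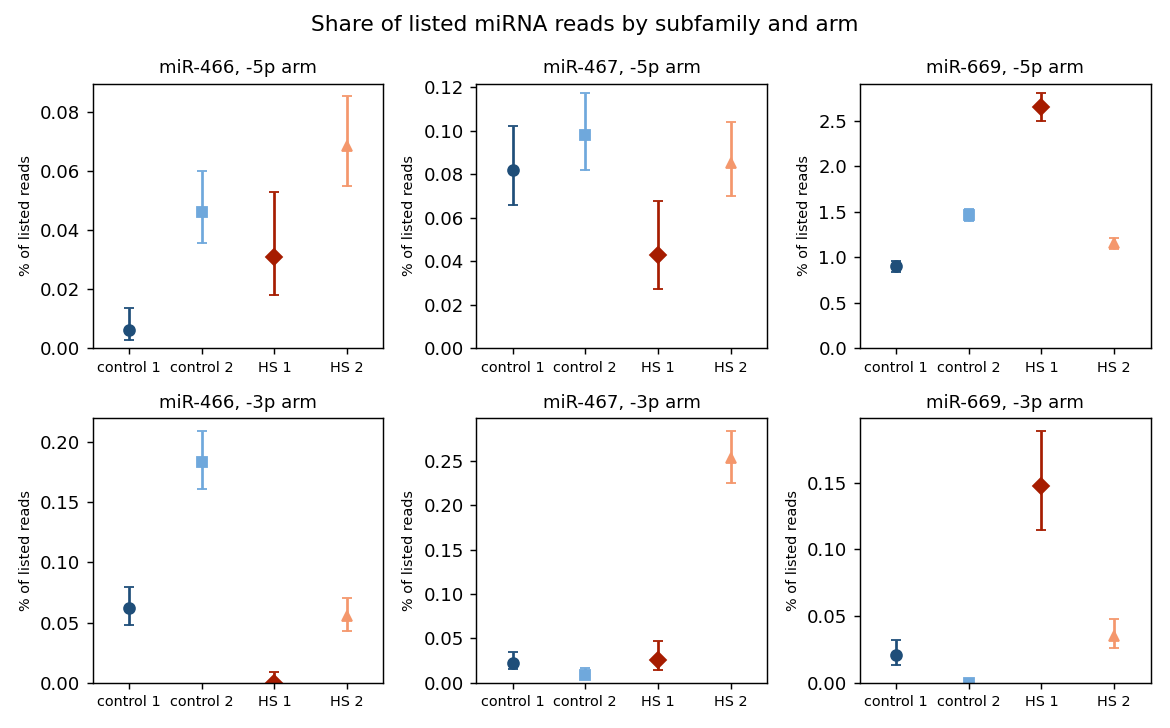
Share of listed miRNA reads (y axis, %) held by the -5p sets (upper row) and the -3p sets (lower row) of miR-466, miR-467 and miR-669 in each library, with Wilson 95% intervals as bars. HS 1 is at 0% for miR-466-3p and highest for both miR-669 arms, and HS 2 is highest for miR-467-3p at 0.253%.

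Over the members tested, both HS libraries lay above both control libraries for 5 of 31 names (16.1%), namely miR-467a-3p, miR-467d-3p, miR-467c-5p, miR-669a-3p and miR-669o-3p, against 12.5% of all names tested. Both HS libraries lay below both control libraries for 11 of 31 (35.5%), against 32.4% of all names. Neither share was far from that of all names. The 11 were the 5 miR-466-3p names that met the criterion, miR-466i-3p, miR-467a-5p, miR-467b-5p, miR-669a-5p, miR-669p-5p and miR-669n. As a share of listed reads, the identical miR-669a-5p and miR-669p-5p were higher in HS 2 (0.123%) than in control 1 (0.116%). MiR-669n had 1 read in HS 1, and the 0 of miR-466i-3p in HS 1 allowed a level above both control libraries. HS 2 was above HS 1 for 12 of the 21 sets and below it for 5.

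The balance between the arms was compared inside each library, where the size factor cancels. For miR-466, the -5p arm held 9.09% of the arm reads in control 1 (95% interval 4.23% to 18.4%), 20.1% in control 2 (15.8% to 25.2%), 100% in HS 1 (77.2% to 100%) and 55.3% in HS 2 (47.1% to 63.3%). Both HS libraries lay above both control libraries beyond their intervals, and the group means differed by 63.1 percentage points. The HS reads came from miR-466h-5p in HS 1 and mainly from miR-466i-5p in HS 2, so different members made up the share. In HS 2, miR-466i-5p, whose gene lies outside Sfmbt2, held 69 of the 78 -5p reads. The other 9 were miR-466c-5p, beside 63 -3p reads, so the separation of HS 2 rested on miR-466i-5p.

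For miR-467 the share went the other way. The -5p arm held 78.2% in control 1 (69.2% to 85.2%), 91.5% in control 2 (85.5% to 95.2%), 62.1% in HS 1 (44.0% to 77.3%) and 25.2% in HS 2 (21.1% to 29.8%). The difference of the group means was -41.2 points, and the intervals of control 1 and HS 1 overlapped. For miR-669 as a whole the share stayed between 94.7% and 100% in all 4 libraries, a difference of -2.98 points. Without miR-669c-5p it was 87.2% in control 1 (81.0% to 91.5%), 100% in control 2 (98.4% to 100%), 19.5% in HS 1 (12.2% to 29.7%) and 84.0% in HS 2 (78.9% to 88.0%), where HS 1 was low and the intervals of HS 2 and control 1 overlapped.

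**Figure D5:**
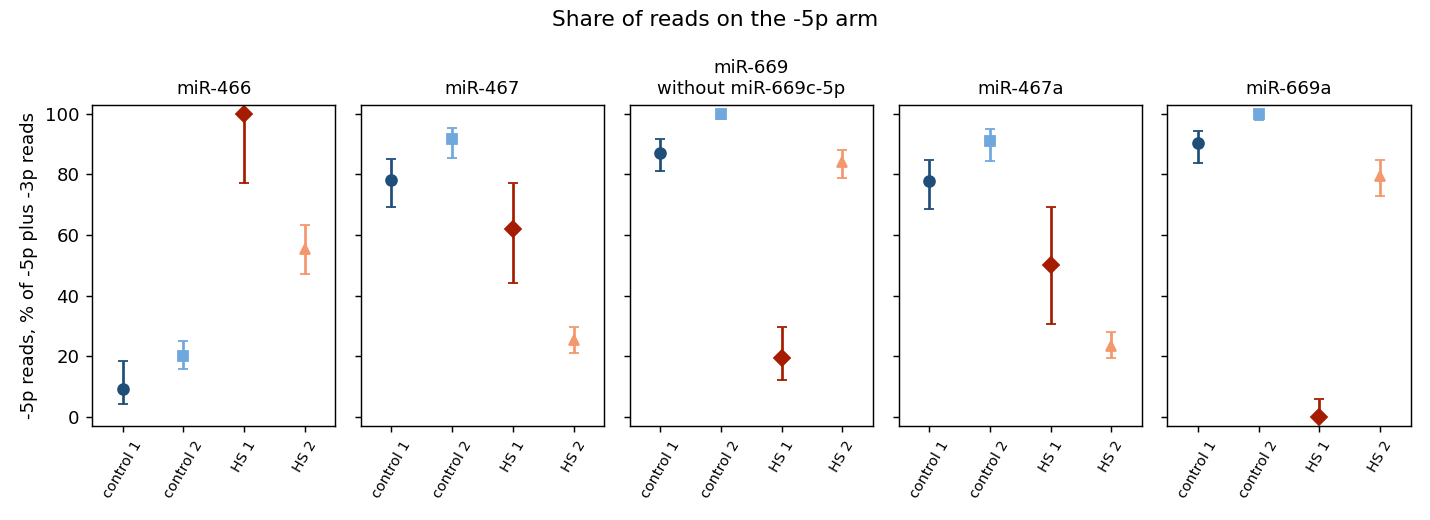
Share of -5p reads among the -5p and -3p reads (y axis, %) of miR-466, miR-467, miR-669 without miR-669c-5p, and of the miR-467a and miR-669a names, in each library, with Wilson 95% intervals as bars. The share of miR-466 is higher in both HS libraries, that of miR-467 lower, and the miR-669 and miR-669a panels turn on HS 1 at 19.5% and 0%.

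Single hairpin names showed where these shares came from. Both arms of miR-467a and of miR-669a share their reads with other names, so these shares need not be those of a single hairpin. MiR-467a had 77.8% of its arm reads on -5p in control 1 (68.6% to 84.8%), 90.9% in control 2 (84.5% to 94.8%), 50% in HS 1 (30.7% to 69.3%) and 23.5% in HS 2 (19.5% to 28.1%). MiR-669a had 90.3% in control 1 (83.8% to 94.4%), 100% in control 2 (97.9% to 100%), 0% in HS 1 and 79.5% in HS 2 (73.0% to 84.8%). The 0 of 60 reads in HS 1 allowed a share of up to 5%. MiR-466h changed arm between replicates, with 42.9%, 0%, 100% and 0%, and its groups overlapped.

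These names were set beside every miRNA listed with both arms and at least 10 arm reads in each library, a comparison chosen after the member shares had been seen. Of the 4 member names that entered it, 3 (miR-467a, miR-467d and miR-669a) had a lower -5p share in both HS libraries than in both control libraries, against 28.3% of the 53 names compared. MiR-467a and miR-467d share their -3p reads, so they are not independent. The miR-467d share was 4.35% in control 1 (0.772% to 21.0%), from 1 -5p read, and 0% in HS 1 (0% to 25.9%). These intervals overlapped, so its separation was within counting error. The HS minus control difference was -55.4 points for miR-669a and -47.6 points for miR-467a, the lowest and second lowest of the 53, and 28.6 points for miR-466h, the highest. Without HS 1, where miR-669a had no -5p reads, its difference was -15.6 points, the 7th lowest, and the intervals of HS 2 and control 1 overlapped. MiR-467a was then the lowest at -60.8 points and miR-466h turned to -21.4 points, and without HS 2 miR-467a was the 6th lowest at -34.3 points. These values without a library were added after seeing the data. The median difference over the 53 names was -0.17 points, and 7 of them differed by more than 20 points in either direction.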

How the data were processed

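Exosomal small RNA from BV2 cells was sequenced in 4 libraries. The signal values deposited by the authors carry the heading RPKM and hold the read count of each miRNA name over the library's size factor (1.20, 1.48, 0.414 and 1.51 for control 1, control 2, HS 1 and HS 2). Before that the authors clipped adapters, dropped reads that were short or of low quality, and aligned with bowtie. The genome build and miRNA annotation are not given in the sources used here, nor is the handling of reads that match several copies. Division by the smallest value above 0 gave whole reads for 100% of values (tolerance 0.0001).

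Names with at least 10 summed reads were tested with limma 3.58.1 (R 4.3.3, eBayes with no trend, pseudocount 1, two-sided, Benjamini-Hochberg over all 376). EdgeR 4.0.16 (quasi-likelihood) and DESeq2 1.42.0 were run on recovered reads as alternatives, beside other pseudocounts, read minimums, scalings and leaving out each library. The test script was checked on simulated counts, with large changes placed only in miRNAs above a higher read minimum. The spread between simulated replicates was set rather than taken from these libraries. The check does not show how well the test finds smaller changes or changes at lower counts. Sums and shares over members have no test, and count each read set once.

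Every read set with at least 10 reads is named, and full statistics are given for those meeting the criterion and the 3 largest changes of each arm. Members and lists were chosen with earlier results of these data known. Tables were made with Python 3.11.15. Replicates of a group differed by more than sampling noise (chi-square per degree of freedom 40.0 and 33.1). Sums by shared seed were planned and not made, because 3 of 40 members had a sequence in the table used.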

Additional observations from a re-analysis of the deposited data

How the results depend on the processing

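The number of members that met the criterion for higher levels was 1. It was 3 with a pseudocount of 2, with no read minimum, and with total, TMM or upper quartile scaling, 0 with a minimum of 20 reads, under which miR-467c-5p was no longer tested, and 5 in edgeR and in DESeq2, and it ranged from 0 to 3 when each library was left out. The number for lower levels was 5 and ranged from 0 (without HS 1) to 8 (without control 2) when each library was left out. Without HS 2 it was 6, and 0 of the 5 names were among them. With the replicate block, a paired fit on the replicate number, 2 members met the criterion for higher levels and 5 for lower levels, and the libraries share only a number here (correlation of the deviations of same-numbered libraries -0.097). The identical miR-669a-3p and miR-669o-3p met the criterion in those 5 settings, under the block and in edgeR and DESeq2. MiR-466i-5p and the identical miR-467a-3p and miR-467d-3p met it in edgeR, in DESeq2 and without HS 1, where HS 2 is the lone HS library and the spread comes from the control libraries, both at 0 for miR-466i-5p. Without HS 2 the log2 fold change of miR-466i-5p was 0. Leaving out each library, the log2 fold change of miR-669c-5p ranged from -0.12 (reversed, without HS 1) to 1.74. Leaving out each library moved the log2 ratio of the family sum between 0.059 and 1.29, that of miR-466-5p between 0.13 and 3.05, that of miR-467-3p between 1.04 and 3.89, and that of miR-669-5p between -0.15 and 1.49. The miR-669-5p ratio was -0.66 without miR-669c-5p, an alternative chosen after seeing the data. The difference in the -5p share of miR-669 was -5.83 points with every name counted and -41.8 points without miR-669c-5p. The sums of miR-466-3p, miR-467-5p and miR-669-3p and the -5p shares of miR-466 and miR-467 kept their direction under every alternative run. Leaving out miR-466i-5p, which held most -5p reads of miR-466 in HS 2, was not among the alternatives. Leaving out each library moved the miR-466-3p ratio between -3.79 (a bound, with HS 1 placed at 3 reads) and -1.26, the miR-467-5p ratio between -0.75 and -0.19, the miR-669-3p ratio between 1.67 and 5.44 (a bound, with control 2 placed at 3 reads), and the share differences between 40.7 and 85.4 points for miR-466 and -59.7 and -22.8 points for miR-467. The cause of these changes was not tested. Depth limits HS 1 most, where 3 reads are 7.25 normalized counts.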
